A study of Klebsormidium nitens with 4 samples.

Results

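The genes described here are 76 of the 17290 annotated genes of the filamentous charophyte alga *Klebsormidium nitens* whose transcripts rose strongly under high light and also ended at a high level. They were chosen by their FPKM (fragments counted for a gene, scaled to the length of its exons and to the mapped reads of the library). The ratio of mean high light FPKM + 1 to mean low light FPKM + 1 had to be at least 4 and the mean high light FPKM at least 50. In addition, both high light libraries had to lie above both low light libraries, and no low light library could be at 0. These criteria were met by 80 genes, and the 4 whose identifiers the text of the study names were left out, namely genes for PGR5, an ELIP, a PsbS and a YUCCA protein. Because these values selected the genes, their rise is a description and is not offered as a finding.

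The strain NIES-2285, kept as photoautotrophic cultures in Bold's Basal Medium with CO2-enriched air, was either held at 50 µE m-2 s-1 (low light) or moved to 1500 µE m-2 s-1 for 3 h (high light). There were 2 independent cultures per condition, and mRNA of each was sequenced as 1 stranded library. Both conditions share the strain, the medium and continuous white light, so the contrast is that of 1 irradiance and 1 duration against the control irradiance. A lower share of cells expressing a gene and less of its RNA per cell cannot be told apart in such libraries, and each level is relative to the other RNA of its library.

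Light beyond what photosynthesis can use leads to reactive oxygen species and damaged proteins in the chloroplast. Plants and algae respond with energy dissipation in the thylakoid membrane, chaperones that hold or refold damaged proteins, enzymes that reduce oxidised residues, and changes at the cell surface. Streptophyte algae such as *Klebsormidium* stand on the lineage that includes the land plants, so the genes are named here by their best hits in the land plant *Arabidopsis thaliana* and the green alga *Chlamydomonas reinhardtii*, as the supplementary table of the study lists them. A best hit is a similarity of sequence, and the roles given below are those known in *Arabidopsis* unless another organism is named.

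Of the 76 genes, 70 were in that table, with 48 having a hit in both species, 4 in *Arabidopsis* only, 4 in *Chlamydomonas* only and 14 in neither. The share without any hit was 20.0% of the 70, against 20.3% of the other 607 genes the study lists as activated. Among 24 listed genes with the same ratio that stayed under the FPKM level, 8 (33.3%) had no hit. The 4 genes with an *Arabidopsis* hit only made up 5.71% of the 70, against 66 (10.9%) of the other 607. The share of genes without a counterpart was thus close to that of the other listed genes, and none of these shares was tested.

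Together the 76 genes held 0.521% and 0.463% of the summed FPKM of the low light libraries, against 3.93% and 4.08% in the high light libraries. None was among the 100 most abundant genes of either low light library, whereas 7 were in each high light library. The mean low light FPKM had a median of 18.5 and ranged from 1.18 to 331, and 60 of the genes were below 50. The mean high light FPKM had a median of 135 and ranged from 50.4 to 2265, with 30 genes at 200 or more and 7 at 1000 or more. Most of the genes therefore came from a low or middling level, and a few genes carried a large part of the added FPKM.

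**Figure D1:**
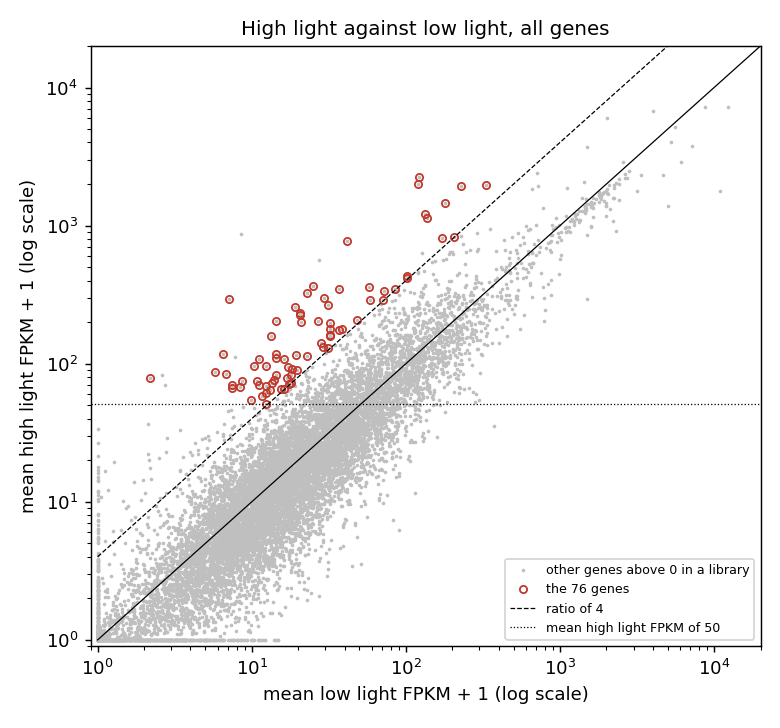
Mean high light FPKM + 1 against mean low light FPKM + 1 on log axes, for every gene above 0 in at least 1 library (grey) and the 76 genes (red circles). The 76 genes lie above the dashed line of a ratio of 4 and the dotted line of 50 FPKM, and the grey points in the same corner are genes left out because the text of the study names them or because a low light library was at 0.

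The ratio had a median of 6.03 and ranged from 4.00 to 41.6. It was at least 8 in 30 genes, at least 10 in 16 and at least 20 in 2. Just inside the ratio threshold were kfl00303_0120 at 4.00 and kfl00089_0100 at 4.05, and just outside it were kfl00024_0310 at 3.99 and kfl01553_0020 at 3.98. Just inside the level threshold were kfl00646_0015 and kfl00020_0010 with a mean high light FPKM of 50.4 and 53.6, and just outside were kfl00029_0410 and kfl00756_0040 with 47.8 and 46.8. The criteria thus cut through a continuum of genes. Only the low light replicate 2 value of 0 kept out kfl00104_0170, with 3.22 and 0 FPKM in low light against 86.1 and 78.6 in high light, and kfl00385_0010, with 3.44 and 0 in low light against 70.7 and 68.2 in high light.

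In a limma model of quantile-normalized log2(FPKM + 1) over all 17290 genes, 691 genes (4.00%) were called activated and 607 (3.51%) repressed, at a log2 fold change of at least 1 in size and a Benjamini-Hochberg adjusted p below 0.05. Of the 76 genes, 70 were called activated, a count that follows from how they were selected and from which nothing is read. The same holds for the limma values of single genes among the 76 given below, which are descriptions. The log2 fold change of the 76 genes on that scale had a median of 2.66 and ranged from 1.88 to 5.53, while the median over all genes above 0 in all 4 libraries was 0.0035. The number called depended on having all 4 libraries, since 23 of the 76 were called when low light replicate 1 was dropped and 23 when its partner was, and 5 when high light replicate 1 was dropped and 5 when its partner was. A condition left with 1 culture was assumed to vary as the other did. Such a fit also has less replicate spread from which to estimate the error. The direction could not depend on a single library, since the selection required both high light libraries above both low light ones. The lower high light FPKM was at least 3.43 times the higher low light FPKM in every one of the 76 genes.

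**Figure D2:**
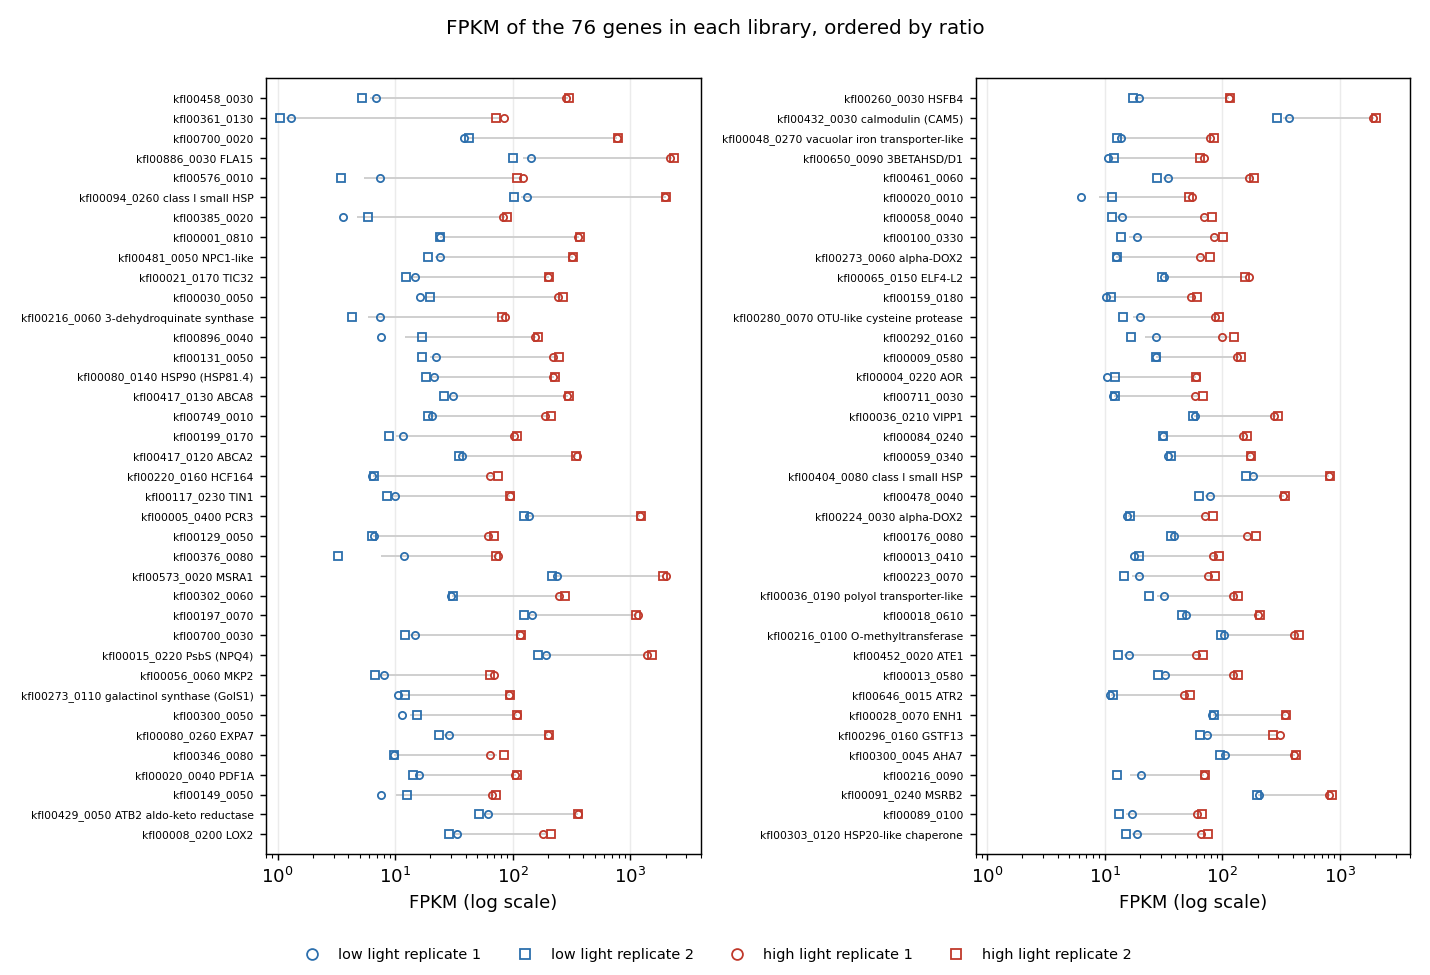
FPKM of each of the 76 genes in the 4 libraries on a log axis, from the highest ratio (top left) to the lowest (bottom right), with low light in blue, high light in red, circles for replicate 1, squares for replicate 2 and grey lines between the condition means. The high light libraries lie within a factor of 1.31 in every gene, and the low light libraries spread more widely in a few genes, up to a factor of 3.63.

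The replicates differed more in low light than in high light. The median absolute log2 difference between replicates for the 76 genes was 0.22 under low light and 0.11 under high light, against 0.11 and 0.085 for the 2027 other genes with a mean high light FPKM of at least 50. High light replicate 2 was above replicate 1 in 62 of the 76 genes (81.6%), against 57.7% of those 2027 genes. The same order held in 33 of 39 genes (84.6%) that met the ratio but stayed under 50 FPKM. Low light replicate 1 was above replicate 2 in 53 genes (69.7%), against 65.0% of the 2027. The second high light culture thus had slightly higher levels of most strongly induced genes, and whether this is a difference between the cultures or between their libraries was not tested.

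Genes with a product at the cell surface reached some of the highest levels. FLA15 (kfl00886_0030), whose best hit is a fasciclin-like arabinogalactan protein, a glycoprotein of the cell surface, went from 143 and 100.2 FPKM in low light to 2173 and 2358 in high light. It was the most abundant of the 76 in high light and moved from rank 689 and 1018 among all genes in the low light libraries to rank 23 and 15 in the high light libraries. Its log2 fold change in limma was 4.31 ± 0.25 (SE), with a Benjamini-Hochberg adjusted p of 0.0278. PCR3 (kfl00005_0400), best hit to a small cysteine-rich membrane protein named for cadmium resistance, went from 137 and 126 FPKM in low light to 1209 and 1234 in high light. EXPA7 (kfl00080_0260), best hit to an expansin, a protein that loosens the cell wall, went from 28.5 and 23.7 in low light to 198 and 204 in high light. The ratios of these 3 genes ran from 7.47 for EXPA7 to 18.5 for FLA15. Summed over the 3, mean FPKM went from 279 in low light to 3688 in high light.

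Of the 9 genes for heat shock proteins and protein quality control, a pair encoded class I small heat shock proteins, chaperones that bind unfolding proteins without ATP. The small heat shock gene kfl00094_0260 went from 133 and 103 FPKM in low light to 1972 and 2035 in high light. Its relative kfl00404_0080 started higher, at 184 and 159.6, and reached 807 and 827. The HSP20-like chaperone kfl00303_0120, with the same *Chlamydomonas* best hit, went from 18.7 and 15.3 in low light to 66.4 and 75.7 in high light. Their ratios were thus 16.8, 4.73 and 4.00, so that among them the gene with the middle level in low light became the most abundant in high light. A listed gene outside the 76, kfl00173_0020, shares both best hits of the class I pair. It went from 105 and 118 in low light to 237 and 268 in high light, a ratio of 2.25. How reads shared by near-identical copies were assigned is not given in the sources used here, and its part in these levels was not tested.

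HSP90 (kfl00080_0140), best hit to a cytosolic ATP-dependent chaperone, went from 21.3 and 18.2 FPKM in low light to 222 and 227 in high light, a ratio of 10.9. TIN1 (kfl00117_0230), whose *Arabidopsis* hit is a gene induced by blocking protein glycosylation, went from 10.05 and 8.55 in low light to 95.2 and 94.7 in high light. HSFB4 (kfl00260_0030), best hit to a class B heat shock transcription factor, went from 19.4 and 17.3 in low light to 115 and 116 in high light. The chaperone, the endoplasmic reticulum stress gene and the transcription factor thus each reached a level several times that of low light. PDF1A (kfl00020_0040), a peptide deformylase that removes the formyl group from new proteins made in organelles, went from 15.9 and 14.3 in low light to 106 and 108 in high light. The OTU-like cysteine protease gene kfl00280_0070, of a family that removes ubiquitin, went from 20.1 and 14.5 in low light to 87.2 and 93.6 in high light. ATE1 (kfl00452_0020), an arginyltransferase that marks proteins for degradation, went from 16.2 and 13.0 in low light to 59.7 and 69.1 in high light. These genes of protein processing and turnover had ratios of 6.70, 5.00 and 4.20.

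Among 5 genes of the thylakoid and plastid, the most abundant was the PsbS gene kfl00015_0220. PsbS senses the acidity of the thylakoid lumen and switches on the dissipation of excess energy as heat. The gene went from 194 and 163 FPKM in low light to 1392 and 1524 in high light, with a limma log2 fold change of 3.02 ± 0.13 (SE) and a Benjamini-Hochberg adjusted p of 0.0221. The other gene with this *Arabidopsis* hit, kfl00093_0070, which the text of the study names, went from 9.15 and 5.97 in low light to 832 and 899 in high light. In low light kfl00015_0220 thus held nearly all FPKM of the pair, and in high light both genes were abundant.

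TIC32 (kfl00021_0170), best hit to a dehydrogenase of the protein import machinery in the inner envelope of the chloroplast, went from 14.6 and 12.3 FPKM in low light to 201 and 205 in high light. HCF164 (kfl00220_0160), a thioredoxin-like protein of the thylakoid needed to assemble the cytochrome b6f complex, went from 6.31 and 6.68 in low light to 63.8 and 75.1 in high light. VIPP1 (kfl00036_0210), which maintains thylakoid membranes, went from 58.7 and 56.7 in low light to 276 and 298 in high light. ENH1 (kfl00028_0070), a rubredoxin-like protein of the plastid, had the highest low light level after PsbS among the 5 genes of this group. Its FPKM went from 81.9 and 85.0 in low light to 344 and 348 in high light. Ratios ranged from 4.11 in ENH1 to 14.1 in TIC32.

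Methionine sulfoxide reductases return oxidised methionine to methionine, MSRA and MSRB acting on opposite stereoisomers. MSRA1 (kfl00573_0020) went from 239.6 and 217 FPKM in low light to 1999 and 1885 in high light, and was one of the few genes in which high light replicate 1 was the higher. Its limma log2 fold change was 3.06 ± 0.04 (SE), with a Benjamini-Hochberg adjusted p of 0.0113. MSRB2 (kfl00091_0240) had a similar level in low light, 208 and 199.6, but reached 809.7 and 856. The A type thus had a ratio of 8.48 and the B type of 4.07 from nearly the same start.

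The other 3 genes of redox repair and detoxification encode enzymes that act on reactive products of oxidation or on foreign compounds. ATB2 (kfl00429_0050), an aldo-keto reductase, went from 62.0 and 52.0 FPKM in low light to 361 and 362 in high light. AOR (kfl00004_0220), a chloroplast enzyme that reduces reactive carbonyls, went from 10.4 and 12.3 in low light to 60.3 and 60.4 in high light. GSTF13 (kfl00296_0160), a glutathione transferase, went from 74.6 and 65.0 in low light to 309 and 269.7 in high light. All 3 stayed below the methionine sulfoxide reductases in every library, and their ratios were 6.25, 4.96 and 4.11.

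Genes of fatty acid oxidation and sterol handling reached lower levels. The NPC1-like gene kfl00481_0050, whose human counterpart moves cholesterol out of lysosomes, led them with 24.2 and 19.1 FPKM in low light against 321 and 328 in high light, a ratio of 14.4. LOX2 (kfl00008_0200), a plastid lipoxygenase at the start of jasmonate synthesis in *Arabidopsis*, went from 33.9 and 28.9 in low light to 180.3 and 210.4 in high light. The sterol dehydrogenase gene 3BETAHSD/D1 (kfl00650_0090), which acts in removing methyl groups from sterol precursors, went from 10.7 and 12.1 in low light to 70.1 and 65.1 in high light. Alpha-dioxygenases add oxygen to fatty acids, and both genes with the best hit alpha-DOX2 lacked a *Chlamydomonas* hit. The alpha-DOX2 gene kfl00273_0060 went from 12.4 and 12.6 in low light to 64.8 and 78.5 in high light. The alpha-DOX2 gene kfl00224_0030 went from 15.4 and 16.6 in low light to 71.5 and 84.3 in high light. The pair therefore had nearly the same level in each condition, with ratios of 5.37 and 4.65.

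Among 5 transport genes, ABCA2 and ABCA8 belong to a family of membrane transporters driven by ATP, members of which move lipids in other organisms. ABCA2 (kfl00417_0120) went from 36.8 and 35.2 FPKM in low light to 349.9 and 344 in high light. ABCA8 (kfl00417_0130), the next gene on the scaffold, went from 31.1 and 26.2 in low light to 291 and 305 in high light. Their ratios of 9.40 and 10.1 were close to each other. AHA7 (kfl00300_0045), a proton pump of the plasma membrane, went from 105 and 96.6 in low light to 407 and 428 in high light. The vacuolar iron transporter-like gene kfl00048_0270 went from 13.7 and 12.8 in low light to 78.6 and 85.4 in high light. The polyol transporter-like gene kfl00036_0190, of the family that carries sugar alcohols, went from 32.3 and 24.0 in low light to 123 and 138 in high light. The proton pump had the highest level and, at 4.10, the lowest ratio of the 5.

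Of 3 signalling genes, the calmodulin gene kfl00432_0030 was by far the most abundant. Calmodulin binds calcium and passes its signal to target proteins. Its FPKM was 367 and 295 in low light, the highest low light mean of all 76 genes, and 1909 and 2029 in high light, which moved it from rank 225 and 267 to rank 32 and 23. MKP2 (kfl00056_0060), a phosphatase that inactivates MAP kinases, went from 8.11 and 6.74 in low light to 69.5 and 64.3 in high light. ELF4-L2 (kfl00065_0150), related to the circadian clock protein ELF4, went from 31.8 and 30.8 in low light to 168 and 155 in high light and had no *Chlamydomonas* hit. Ratios were 5.93, 8.06 and 5.03, and MKP2 and ELF4-L2 were higher in high light replicate 1 than in replicate 2.

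The 4 metabolic genes cover separate pathways. The 3-dehydroquinate synthase gene kfl00216_0060, of the shikimate pathway to aromatic amino acids, went from 7.37 and 4.30 FPKM in low light to 87.0 and 81.0 in high light, with a ratio of 12.4. The galactinol synthase gene GolS1 (kfl00273_0110), which makes the galactosyl donor for raffinose sugars, went from 10.5 and 12.2 in low light to 93.5 and 95.6 in high light. The O-methyltransferase gene kfl00216_0100 went from 104 and 97.0 in low light to 409 and 449 in high light. ATR2 (kfl00646_0015), the reductase that feeds electrons to cytochromes P450, had the lowest high light mean of the 76, with 11.01 and 11.7 in low light against 47.3 and 53.5 in high light. The O-methyltransferase and ATR2 had ratios of 4.24 and 4.16, against 7.73 for GolS1.

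The remaining 13 genes with an *Arabidopsis* hit had ratios from 4.05 to 18.0 and mean high light FPKM from 64.3 to 205. A short-chain dehydrogenase gene, kfl00576_0010, had the highest ratio of them, with 7.48 and 3.50 FPKM in low light against 123 and 109 in high light. The gene kfl00385_0020, best hit to an RNA-binding protein, followed at 15.1, with 3.62 and 5.89 in low light against 82.1 and 90.1 in high light. Both had wide low light replicates, and their limma log2 fold changes of 4.43 ± 0.44 and 4.19 ± 0.32 (SE) had Benjamini-Hochberg adjusted p of 0.0457 and 0.0361.

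**Figure D3:**
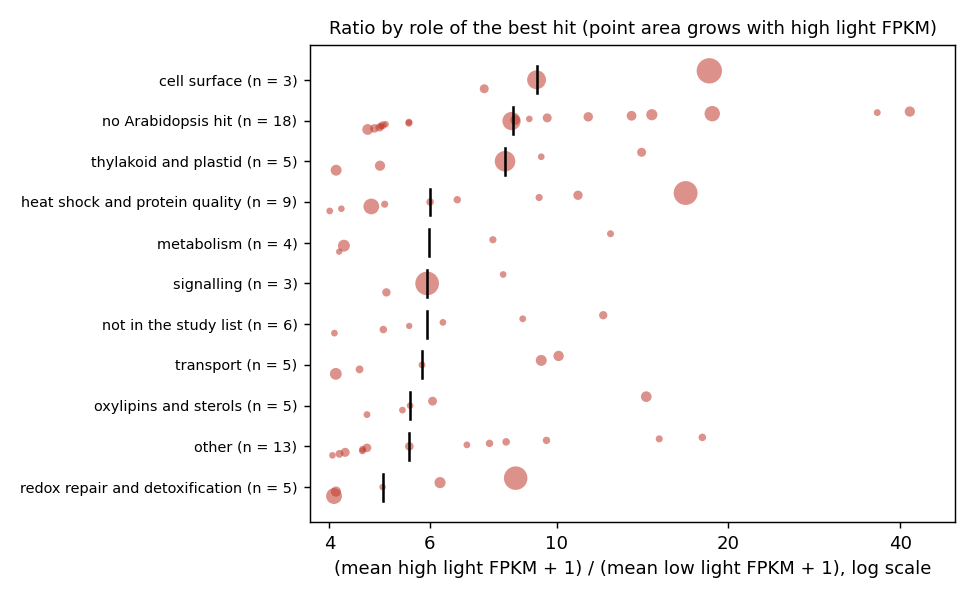
Ratio of each of the 76 genes on a log axis, by the role of the *Arabidopsis* best hit, with point area growing with mean high light FPKM and black bars at the group medians. Group medians range from 4.96 for redox repair and detoxification to 9.22 for the cell surface, with every group reaching below 8, and the highest ratios are in genes without an *Arabidopsis* hit.

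The 18 listed genes without an *Arabidopsis* hit had a median ratio of 8.40, and their mean FPKM summed to 519 in low light and 4770 in high light. The highest ratio of all 76 genes was that of kfl00458_0030, which has neither hit, at 41.6. Its FPKM went from 6.87 and 5.27 in low light to 286 and 299.8 in high light. Next was kfl00361_0130, also without a hit, with 1.30 and 1.05 in low light, the lowest low light mean of the 76, and 85.0 and 71.8 in high light. Their limma log2 fold changes were nearly equal, at 5.53 and 5.52. As ratios of mean FPKM without the added 1, kfl00361_0130 was the higher, at 66.6-fold against 48.3-fold, since the added 1 weighs most on a gene that starts near 1 FPKM.

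A further 3 genes without any hit combined a high ratio or level. The gene kfl00700_0020 went from 38.4 and 42.8 FPKM in low light to 769.9 and 788 in high light, a ratio of 18.7. The gene kfl00001_0810 went from 23.9 and 24.0 in low light to 358 and 373 in high light. The gene kfl00197_0070 went from 146 and 125 in low light to 1160.0 and 1113 in high light, and ranked 90 in both high light libraries. No product name was available here for any of them. A pair with the same *Chlamydomonas* best hit, Cre01.g002750, differed in level. The gene kfl00030_0050 of this pair went from 16.4 and 19.7 in low light to 245 and 268 in high light, whereas kfl00058_0040 went from 14.1 and 11.6 in low light to 69.4 and 81.3 in high light. They started at similar levels and reached ratios of 13.5 and 5.51.

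The 6 genes that are in neither list of the study, and so carry no best hit here, were those not called in limma. Their Benjamini-Hochberg adjusted p in limma ranged from 0.0595 to 0.119. The widest low light pair was that of kfl00376_0080, with 11.9 and 3.29 FPKM in low light against 75.4 and 72.8 in high light. The highest level was that of kfl00896_0040, with 7.64 and 16.9 in low light against 154 and 164 in high light. In all 6 the low light libraries differed by at least a factor of 1.60, more than the high light libraries of the same genes. When genes whose mean FPKM was under 1 in both conditions were kept out of the fit, all 6 were called.

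Best hits shared with other listed genes gave a view of related genes that the selection did not use. Of the 76 genes, 22 shared an *Arabidopsis* or *Chlamydomonas* best hit with another gene of the study's lists. These led to 19 listed genes outside the 76, of which 9 are listed as activated and 10 as repressed. In the limma model here 8 were called activated and 9 repressed, and those not called were kfl00173_0020, whose log2 fold change was 1.07 with a Benjamini-Hochberg adjusted p of 0.0573, and kfl00158_0100, with -0.82 and 0.0601. The lists were made on these same libraries and hold only changed genes, so the count of relatives that changed is not independent evidence. Relatives in both directions were present, but the study's activated and repressed lists are of nearly equal size. Over all genes the limma model called 691 activated and 607 repressed. Nothing is therefore read from the near-even split among the relatives.

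For some hits the strongly induced gene was matched by a gene that fell. The iron transporter-like gene kfl00048_0270 shared both hits with kfl00034_0180, which went from 77.4 and 61.0 FPKM in low light to 17.8 and 21.5 in high light, a log2 fold change of -1.67 with a limma Benjamini-Hochberg adjusted p of 0.0452. In high light kfl00048_0270 reached about the level that kfl00034_0180 had held in low light. The polyol transporter-like gene kfl00036_0190 shared a *Chlamydomonas* hit with kfl00046_0020, which went from 133 and 122 in low light to 53.0 and 57.3 in high light. It also shared that hit with kfl00090_0290, which went from 479 and 429 in low light to 156 and 157 in high light. Summed over the listed genes with this *Chlamydomonas* hit, FPKM therefore fell with the more abundant ones. Genes outside the lists were not counted, and the relatives do not share the *Arabidopsis* hit that gave kfl00036_0190 its name. The sterol dehydrogenase gene kfl00650_0090 had a relative, kfl00049_g19, with 32.3 and 27.2 in low light against 5.81 and 7.14 in high light. The calmodulin gene kfl00432_0030 shared its *Chlamydomonas* hit with kfl00089_0180, which went from 53.3 and 50.3 in low light to 17.4 and 17.1 in high light. Its limma log2 fold change was -1.42, with a Benjamini-Hochberg adjusted p of 0.0124.

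For other hits a relative rose as well. The VIPP1, LOX2 and TIC32 hits each had an activated relative that started higher than the selected gene and had a lower ratio. These relatives met the high light level of the selection, so only a ratio under its threshold kept them out of the selected genes. Their lower ratios are therefore fixed by the selection, and nothing is read from them or from the higher starts. The PsbS relative given above started lower and had a higher ratio. It was left out only because the text of the study names it. The VIPP1 relative kfl00632_0090 went from 150 and 149 FPKM in low light to 428 and 461 in high light. The LOX2 relative kfl00016_0240 went from 69.6 and 61.7 in low light to 186 and 191 in high light, so that both LOX2 genes ended near the same level. The TIC32 hit had a relative in each direction. Of these, kfl00118_0310 went from 94.3 and 85.2 in low light to 241 and 222 in high light, and kfl00592_0030 went from 60.5 and 55.2 in low light to 18.4 and 16.0 in high light. The gene with the lowest low light level of the 3, kfl00021_0170, was thus the one selected here.

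**Figure D4:**
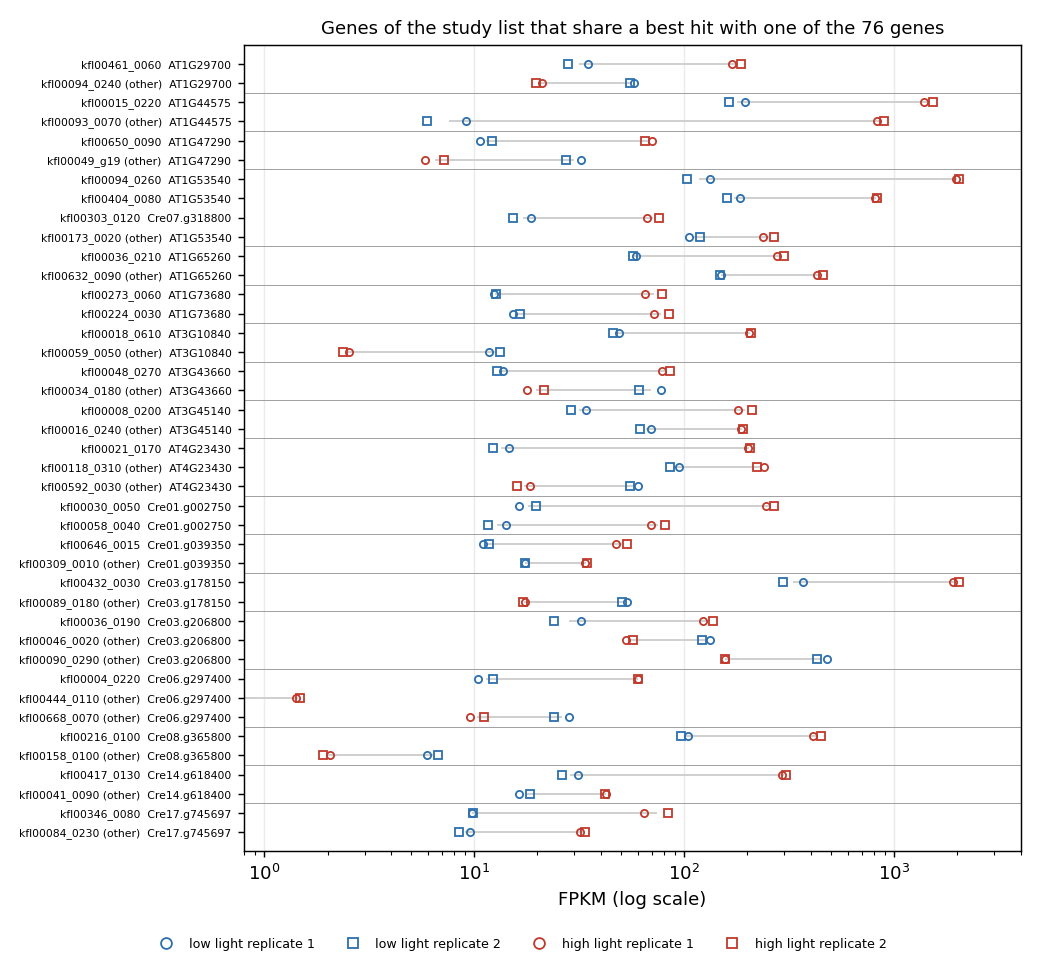
FPKM in the 4 libraries (log axis) of the 22 genes that share a best hit with another listed gene, and of the 19 listed genes outside the 76 ("other"), grouped by the shared hit given after each name, with low light in blue, high light in red, circles for replicate 1 and squares for replicate 2. Genes sharing a hit with the iron transporter-like, polyol transporter-like or calmodulin gene move in the opposite direction to it. The low light values of kfl00444_0110, listed at 0, lie off the axis.

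Position on the scaffolds did not enter the selection. All 76 genes were found in the RefSeq gene table of assembly ASM70883v1, and the median span of their gene models was 4068.5 bp, against 4011 bp for the other genes with a mean high light FPKM of at least 50. An immediate neighbour with a ratio of at least 2 was present for 26 of the 76 (34.2%), but 5 of these had it only through another of the 76, whose ratio the selection fixed. Counting only neighbours outside the 76, the number was 21 of 76 (27.6%), against 261 of 1974 (13.2%) other genes with a mean high light FPKM of at least 50. Among 790 other genes that themselves had a ratio of at least 2, it was 170 (21.5%) on the same count. The share for the 76 genes was thus above that of other abundant genes and near that of other induced genes, as a description, since neighbouring genes are not independent and the differences were not tested.

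The 76 genes included 4 adjacent pairs. The ABCA2 and ABCA8 genes lie on scaffold 417 at 63771 to 71321 and 72579 to 79038, 1257 bp apart. The gene models of kfl00700_0020 (scaffold 700, 23419 to 25819) and kfl00700_0030 (25282 to 32827) overlap by 538 bp. The AHA7 gene and kfl00300_0050 are 66 bp apart on scaffold 300, and kfl00216_0090 and the O-methyltransferase gene kfl00216_0100 are 620 bp apart on scaffold 216. The pairs differ in how alike their members were, with ratios of 9.40 and 10.1 for the ABCA genes but 18.7 and 8.16 for the overlapping pair. The libraries were stranded, but whether counting used the strand is not given in the sources used here, and the part of reads from one gene counted in its neighbour was not tested.

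Of the 137 immediate neighbours outside the 76, 15 (10.9%) were called activated in limma and 5 (3.65%) repressed, against 4.00% and 3.51% of all genes. Counting only the 110 neighbours above 0 FPKM in a library, the activated share was 13.6%, against 5.85% of the 11820 genes above 0. Of the 15 activated neighbours, 1 overlapped its partner (kfl00346_0070, by 606 bp) and 7 were less than 500 bp away. Among them were 3 genes that the text of the study names. The LHCSR gene kfl00478_0030, for an antenna protein that dissipates energy in green algae, lies 403 bp from kfl00478_0040 and went from 2152 and 1901 FPKM in low light to 5646 and 6359 in high light. The selected gene beside it, without a best hit, went from 78.4 and 63.8 in low light to 331 and 340.3 in high light. The PGR5 gene kfl00020_0020, for a protein of cyclic electron flow, lies 199 bp from kfl00020_0010, and a thioredoxin-like gene, kfl00573_0030, lies 211 bp from the MSRA1 gene.

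Genes farther along the scaffolds were counted in the same way. One gene before and after, 12 of 58 (20.7%) and 9 of 52 (17.3%) genes above 0 FPKM and outside the 76 had a ratio of at least 2. At 5 genes before and after these were 1 of 38 and 0 of 39, against 834 of 11744 (7.10%) over all other genes above 0. Between these distances the shares went up and down, with 10 of 55 (18.2%) at 2 genes before and 3 of 52 (5.77%) at 2 after, so that no even decline with distance was seen.

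**Figure D5:**
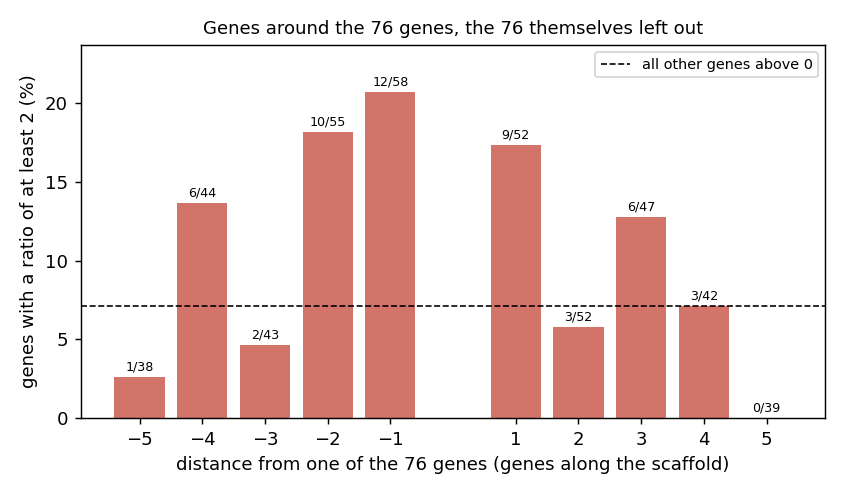
Share of genes with a ratio of at least 2 (per cent, with counts above each bar) by distance in genes from one of the 76 genes along the scaffold, leaving out the 76 themselves and genes at 0 FPKM, with the dashed line at the share over all other genes above 0 (7.10%). The bars at 1 gene before and after (20.7% and 17.3%), 2 before (18.2%), 4 before (13.6%) and 3 after (12.8%) are above the line, that at 4 after (7.14%) is at it, and the other bars are below it.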

How the data were processed

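The authors used their MARACAS pipeline, in which FastQC checks reads, HISAT2 maps them and StringTie gives gene levels, with assembly and annotation v1.0; tool versions are not given in the sources used here. The deposited values, FPKM of 17290 genes in 4 libraries, are not quantile normalized. FPKM keep no read counts and their low values were no whole multiples of a common step. The study gives an approximate number of reads per sample, but the exact count of each library is unknown. The replicate spread is therefore the only error used. With 2 cultures per condition that spread is itself imprecise.

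Here log2(FPKM + 1) was quantile normalized and fitted in limma 3.58.1 under R 4.3.3, moderating the variance with no trend, with Benjamini-Hochberg adjustment over all genes. In simulated data with 200 of 17290 genes raised 4-fold, this step called few unchanged genes and recovered 12.5% of the changed ones. More genes were called in the deposited data than were changed in the simulation, so that share does not carry over to them. Log2 fold changes on this scale understate the change of low genes. Other values are FPKM as deposited, handled in Python 3.11.15. The genes and the role lists were chosen with earlier results of these data known. Full values are given for the 10 genes with the highest ratio, the 10 with the highest mean high light FPKM and all in the role lists. Best hits were taken from the study's supplementary table, without its values. The reference table of ASM70883v1 matched 16199 features. The study names its assembly by version and a sequence record, without the name ASM70883v1. Protein and promoter comparisons that had been planned were not run, as no sequences were used here. Alternatives covered the pseudocount, a low-value filter, other scalings, a variance trend, a replicate block, left-out libraries and other thresholds of the selection.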

Additional observations from a re-analysis of the deposited data

How the results depend on the processing

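All 76 genes kept a positive log2 fold change of at least 1.81 in limma under every alternative. That no sign changed follows largely from their selection on this contrast in these libraries, and is not offered as a test. The number of genes called activated over all genes, 691, became 1212 when genes whose mean FPKM was under 1 were kept out, a rise whose cause was not tested, and ranged from 141 to 180 with 1 library left out. The number of the 76 called, 70, ranged from 5 to 23 with 1 library left out. Without normalization the calls were 515 activated and 876 repressed (37.0% activated, against 53.2% in the main fit), and the median log2 fold change over genes above 0 in all libraries moved to -0.22.

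With the replicate number as a replicate block, limma called 0 genes overall and 0 of the 76 at a Benjamini-Hochberg adjusted p below 0.05. In that limma fit 4365 genes and 73 of the 76 had an unadjusted p below 0.05. The block left the log2 fold changes of the 76 genes unchanged. With 4 libraries, a block term leaves less replicate spread to estimate the error than the main fit had. Its part in the loss of calls was not tested. Whether the replicate numbers pair the cultures is not given in the sources used here. The differences between replicates 1 and 2 correlated at -0.20 between the conditions across 10557 genes above 0 in all libraries. Across the 76 genes the correlation was 0.087. Such correlations cannot settle whether cultures were handled in pairs. A crossed pairing, chosen after seeing the data, also called 0 genes and 0 of the 76, with 4383 and 75 at an unadjusted p below 0.05.

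The number of genes selected moved from 76 to 144 at a ratio of at least 3, 39 at a ratio of at least 6 and 47 at a level of at least 100 FPKM, and ranged from 73 to 88 with 1 library left out. With FPKM scaled to the same median it was 109, all 76 included. The median log2 fold change of 2.66 was 2.74 with a pseudocount of 0.1, 2.81 with FPKM scaled to the same median and 2.63 to 2.76 with 1 library left out, the highest without low light replicate 1.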
